A study of Arabidopsis thaliana with 2 samples.

Results

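The genes described here are the Arabidopsis thaliana genes that the array's own probe descriptions call NBS-LRR or disease resistance protein. The wording picked 220 probes, of which 217 could be tied to 150 loci among the 26467 loci on the array and 3 had no locus. Each locus was read through its brightest probe, and 98 of the 150 loci (65.3%) had a spot flagged present on both arrays and so a ratio, among 16999 genes with a ratio in all. The wording names 86 loci as TIR-NBS-LRR, 14 as CC-NBS-LRR and 12 as TIR proteins without mention of LRR, while 38 loci carry no TIR or CC wording. Ratios were available for 55, 10, 8 and 25 of them, in that order. The label holds for most of the set, but 4 loci are described as another kind of protein. They are the cochaperone RAR1 (AT5G51700), the lipase-like AT3G48080, the receptor-like protein RLP49 (AT4G13900) and AT3G20610, which had no ratio.

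Leaf RNA of 35S:NROB #2 plants was set against leaf RNA of wild-type plants, both in the Columbia-0 background and both harvested as young leaves at day 30. The 35S promoter is a viral promoter active in most plant tissues, and the plants are a single numbered line, so the transgene and the line cannot be told apart. There were 2 two-colour arrays, labelled as biological replicates 1 and 2, each holding 1 sample of each genotype. The labels do not say whether plants were pooled. The 35S:NROB #2 RNA carried Cy3 and the wild-type RNA Cy5 on both arrays, so genotype and dye cannot be told apart. The level of the transgene was not read, as no probe carries its name. In whole leaves, fewer cells of a type and less RNA per cell cannot be told apart. All 8 leaf markers were present on both arrays, as were 1 of 6 root, 0 of 4 flower and 0 of 4 seed markers. The 3 measured guard cell markers summed to 1582 and 1947 in 35S:NROB #2, against 2329 and 3327 in wild type, and the 2 phloem markers to 15508 and 16345 in 35S:NROB #2, against 18656 and 21918 in wild type. The part of these cell types in the results was not tested.

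NBS-LRR proteins are the intracellular immune receptors of plants. They detect pathogen effectors, often by guarding a host protein that the effector alters, and their activation can end in local cell death. Those with an N-terminal TIR domain signal through EDS1 with PAD4 or SAG101, many with a coiled-coil (CC) domain depend on NDR1, and a small group of helper receptors that includes ADR1 acts downstream of other receptors. Their levels are held in check in healthy leaves, since surplus receptor can trigger defence without a pathogen.

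As a set, the receptor genes stood higher in 35S:NROB #2 leaves than in wild-type leaves, mostly by small amounts. The median log2 ratio of 35S:NROB #2 over wild type was 0.35 over the 98 genes, with 0.32 on array 1 and 0.39 on array 2 (SD 0.049, n = 2 arrays), beside a median of -0.028 over all genes tested. The ratio was above 0 on both arrays for 80 of the 98 genes (81.6%), against 37.8% of all genes, and below 0 on both arrays for 8 genes, against 43.2% of all genes. The other 10 had opposite signs on the arrays. Both 35S:NROB #2 intensities lay above both wild-type intensities for 57 genes of the set, beside 23.2% of all genes, and below them for 5, beside 30.1% of all genes. By the study's own threshold, a mean change over 2-fold, here with the same sign on both arrays, 15 of the 98 genes were higher (15.3%, beside 4.85% of all genes) and 0 were lower (beside 2.85% of all genes). The intensities of all 15 genes over 2-fold higher did not overlap between genotypes, which follows largely from that choice. A present flag depends on the signal itself, so the 98 genes are not a neutral sample of the 150.

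No gene of the set passed limma's moderated test at an adjusted p (Benjamini-Hochberg over all 16999 genes) under 0.05. The lowest adjusted p by limma was 0.0524, and 42 genes passed over the whole array (0.247%). At an unadjusted p under 0.05, limma picked 50 genes of the set as higher and 2 as lower (53.1% together, beside 32.9% of all genes). The arrays number only 2, which leaves 1 residual degree of freedom and limits the precision of every ratio below. In simulated arrays of the same size the test found 4.2% of genes changed by 1 on the log2 scale and 85.8% of genes changed by 2. Each simulation changed 200 of the 16999 genes and left the rest unchanged. The adjusted p depends on how many genes change, so these rates may not hold for the real arrays. After other scalings of the same arrays limma called 7 to 12 genes of the set (7.14% to 12.2%), all higher, beside 3.62% to 5.87% of all genes, and 7 were called under each of 3 scalings: RLP49, AT5G45000, AT1G17600, AT1G17610, AT3G14470, AT1G12290 and AT5G51630.

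**Figure D1:**
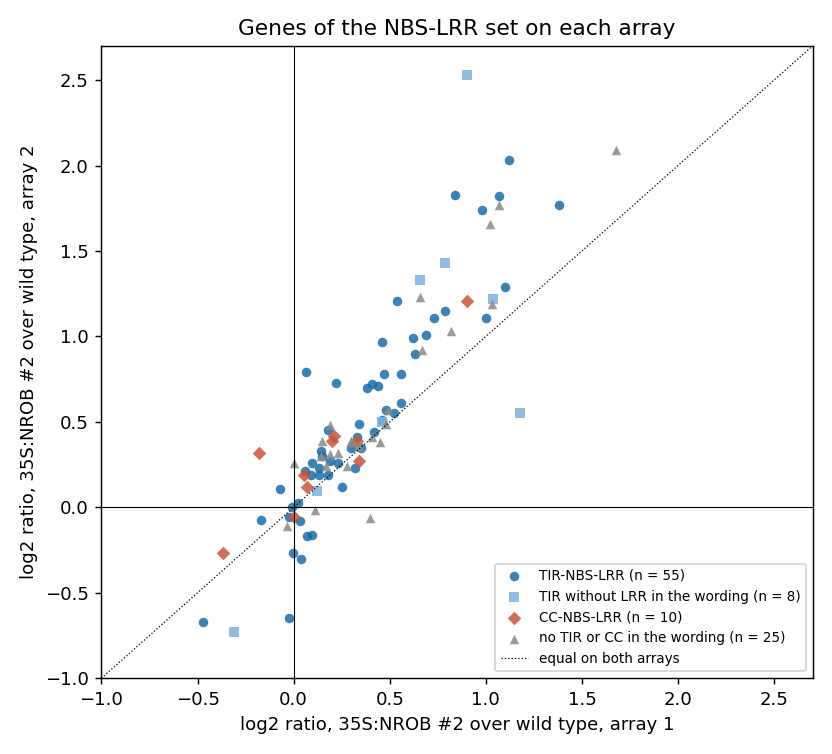
Log2 ratio of 35S:NROB #2 over wild type on array 1 (x axis) and on array 2 (y axis) for the 98 genes of the NBS-LRR set, with 1 point per gene and the symbol giving the class in the probe's wording. Of the 98 points, 80 lie above 0 on both axes, and the 15 genes over 2-fold higher all lie above the dotted line of equal ratios.

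The highest of the 98 ratios belonged to RLP49, a receptor-like protein of the cell surface family that the reference lists as a transcribed pseudogene. Its intensity was 894 and 1097 in 35S:NROB #2, against 279 and 257 in wild type. The groups were far apart, with a mean log2 ratio of 1.89 ± 0.29 (SD, n = 2) and a limma adjusted p of 0.0524. Without RLP49, RAR1 and the lipase-like AT3G48080, 14 of 95 genes were over 2-fold higher and the median stayed at 0.35.

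Among genes with TIR wording, AT1G66090, a TIR protein without mention of LRR, had intensities of 1973 and 2947 in 35S:NROB #2, against 1058 and 510 in wild type. The groups did not overlap, but the arrays disagreed on the size: the log2 ratio was 0.90 on array 1 and 2.53 on array 2, with a mean of 1.71 ± 1.15 and a limma adjusted p of 0.101. The TIR-NBS-LRR gene AT5G45000 gave 833 and 1327 in 35S:NROB #2, against 321 and 390 in wild type. Its arrays were closer together, with a mean log2 ratio of 1.57 ± 0.28 and a limma adjusted p of 0.0524. AT5G41750 reached the same mean with a wider spread, 1.57 ± 0.64, from intensities of 2178 and 3483 in 35S:NROB #2, against 1004 and 855 in wild type. Its neighbour AT5G41740 read 271 and 466 in 35S:NROB #2, against 138 and 139 in wild type, a mean log2 ratio of 1.36 ± 0.54.

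Of the other TIR-NBS-LRR genes past the threshold, AT3G04220 read 220 and 335 in 35S:NROB #2, against 104 and 94.7 in wild type, a mean log2 ratio of 1.45 ± 0.53 (SD, n = 2). AT5G58120 read 456 and 767 in 35S:NROB #2, against 255 and 216 in wild type, a mean of 1.33 ± 0.70. Both had the larger ratio on array 2 by a wide margin. AT1G17600 read 567 and 810 in 35S:NROB #2, against 264 and 330 in wild type, a mean of 1.20 ± 0.13, and AT5G51630 stood at 1.05 ± 0.078. AT1G17610 (CHS1), a TIR protein known from a mutant that dies in the cold, read 215 and 280 in 35S:NROB #2, against 104 and 120 in wild type, a mean of 1.13 ± 0.12. These arrays differed little from each other. AT1G72890, also without LRR in its wording, stood at 1.11 ± 0.45. In each of these genes the lower 35S:NROB #2 intensity exceeded the higher wild-type intensity, as largely follows from their choice by the threshold. WRR4, a TIR-NBS-LRR receptor for white rust, was just short of the threshold at 0.97 ± 0.25, as was AT1G72950 at 0.99 ± 0.47.

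ADR1, the helper receptor that acts downstream of other receptors, had intensities of 1787 and 2818 in 35S:NROB #2, against 854 and 826 in wild type. The samples of either genotype were well separated, and the mean log2 ratio was 1.42 ± 0.50 (limma adjusted p 0.0643). Its relative ADR1-L1 read 16091 and 25151 in 35S:NROB #2, against 10161 and 10733 in wild type, a mean log2 ratio of 0.95 ± 0.40. ADR1-L2, of the same family but with a probe that lacks the wording, read 5325 and 7221 in 35S:NROB #2, against 3379 and 3132 in wild type, a mean log2 ratio of 0.93. All of these helpers were higher on both arrays, with no overlap between genotypes. AT5G66900 and AT5G66910, which lie side by side, gave smaller mean log2 ratios of 0.36 ± 0.041 and 0.31 ± 0.049.

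RFL1, with no TIR or CC wording, read 171 and 262 in 35S:NROB #2, against 84.6 and 83.1 in wild type. The mean log2 ratio was 1.34 ± 0.45, and the wild-type samples lay almost on top of each other. AT1G12290, the only CC-NBS-LRR gene past the threshold, read 666 and 897 in 35S:NROB #2, against 356 and 388 in wild type, a mean log2 ratio of 1.06 ± 0.22. AT3G14470, also without TIR or CC wording, read 1434 and 1905 in 35S:NROB #2, against 701 and 834 in wild type, and stood at 1.11 ± 0.11. All 15 genes past the threshold had the larger ratio on array 2, as did 793 of the 824 genes over 2-fold higher on the whole array, and the number past the threshold was 10 on array 1 alone and 22 on array 2 alone. Of the 15, 6 lay in the lower quartile of intensity, and 9 of the 60 genes of the set above that quartile were over 2-fold higher.

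**Figure D2:**
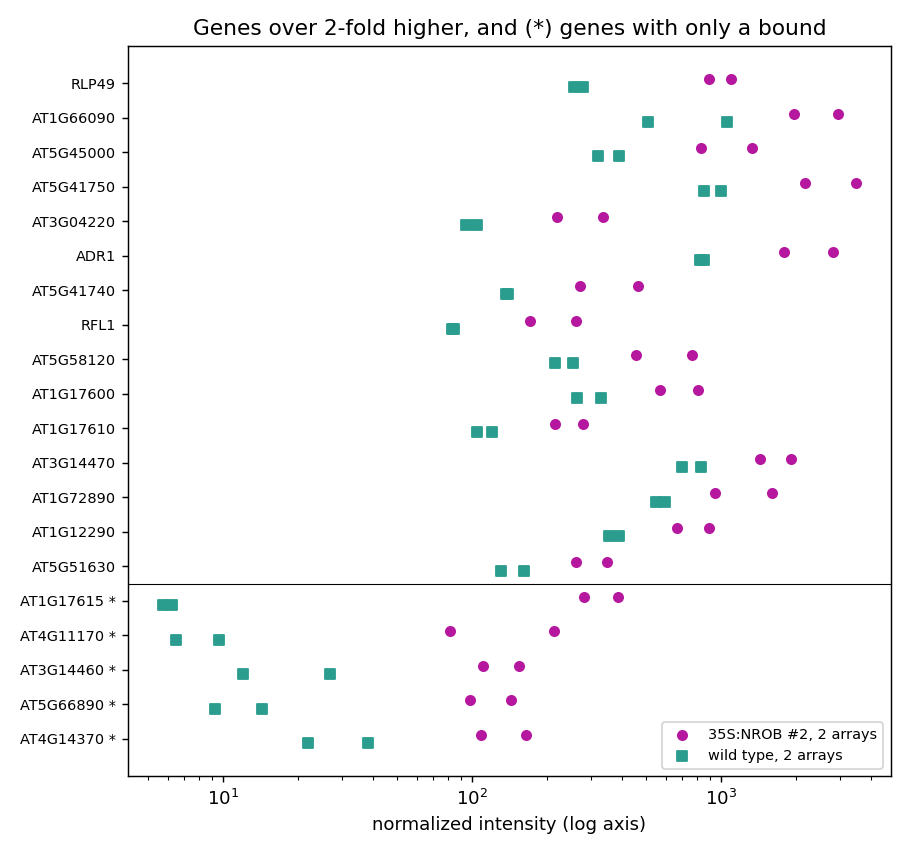
Normalized intensity (log axis) of each 35S:NROB #2 sample (circles) and each wild-type sample (squares). Rows above the line are the 15 genes over 2-fold higher, sorted by mean log2 ratio. Below the line, marked with an asterisk, are the 5 loci without a present flag on both arrays whose bound was over 2-fold higher. All rows were chosen for a higher 35S:NROB #2 signal. That both circles lie to the right of both squares in every row follows largely from this choice.

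Several receptors of known pathogen specificity lay in the middle of the set. Of 28 characterised receptor genes among the 98, 25 were higher on both arrays (89.3%, beside 37.8% of all genes). Only 1 was lower on both (3.57%, beside 43.2%) and 4 were over 2-fold higher (14.3%, beside 4.85%). The median of the 28 was 0.39. RPS2, which with RPM1 guards the host protein RIN4 against bacterial effectors, read 1554 and 1909 in 35S:NROB #2, against 1105 and 1283 in wild type, a mean log2 ratio of 0.53 ± 0.057. RPM1 stood at 0.41 ± 0.046. The genotypes did not overlap for either gene.

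RPP1, RPP4, RPP5, RPP8 and RPP13 are named for resistance to the downy mildew oomycete. RPP1 read 12917 and 16323 in 35S:NROB #2, against 8759 and 9517 in wild type, and RPP5 read 21510 and 28718 in 35S:NROB #2, against 16186 and 17444 in wild type. Their mean log2 ratios were 0.67 ± 0.15 and 0.56 ± 0.22, and RPP4 was close by at 0.54 ± 0.22. RPP8 at 0.27 ± 0.17 and RPP13 at 0.22 ± 0.11 were lower than these. The listed receptor loci AT1G58602 at 0.41, AT4G19500 at 0.16 and AT4G19510 at -0.031, with opposite signs on the arrays, carry no gene name in the reference. The paired bacterial receptors RPS4 and RRS1 gave 0.24 ± 0.13 and 0.13 ± 0.18, and RRS1 read 793 on array 1 in both genotypes. CSA1, LAZ5 and VICTR, all TIR-NBS-LRR genes, had mean log2 ratios of 0.37 ± 0.056, 0.19 ± 0.0063 and 0.81 ± 0.26.

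Characterised receptors whose probes lack the wording gave a lower median of 0.17, with 11 of 12 measured. On both arrays 7 were higher (63.6%, beside 37.8% of all genes) and 3 were lower (27.3%, beside 43.2%). Of the 11, 0 were over 2-fold higher, beside 4.85% of all genes, and 0 over 2-fold lower, beside 2.85%. They included SNC1, the TIR receptor whose gain-of-function mutant is autoimmune, at 0.29, and ZAR1, the CC receptor that forms a resistosome, at 0.45. SUMM2, which guards a MAP kinase cascade, stood at -0.18, and WRKY19, a receptor fused to a WRKY domain, at -0.0036. WRKY19 turned to a positive ratio under each of 3 other scalings.

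By class, the median log2 ratio was 0.37 for the 55 TIR-NBS-LRR genes and 0.21 for the 10 CC-NBS-LRR genes. The difference of 0.16 came to 0.18 on array 1 and 0.14 on array 2 (SD 0.031, n = 2 arrays). The middle of the classes overlapped, with quartiles of 0.15 and 0.69 for TIR-NBS-LRR and of 0.077 and 0.31 for CC-NBS-LRR. Over 2-fold higher were 7 of 55 TIR-NBS-LRR genes (12.7%) and 1 of 10 CC-NBS-LRR genes (10%), beside 4.85% of all genes. On both arrays 44 and 7 were higher (80% and 70%), beside 37.8% of all genes. The classes were not tested against each other. The 8 TIR genes without mention of LRR had a median of 0.93. Of them 3 were over 2-fold higher (37.5%, beside 4.85% of all genes), and 7 were higher on both arrays (87.5%, beside 37.8%). With 8 and 10 genes, the shares of the small classes rest on few genes. The 25 genes with neither wording had a median of 0.35.

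**Figure D3:**
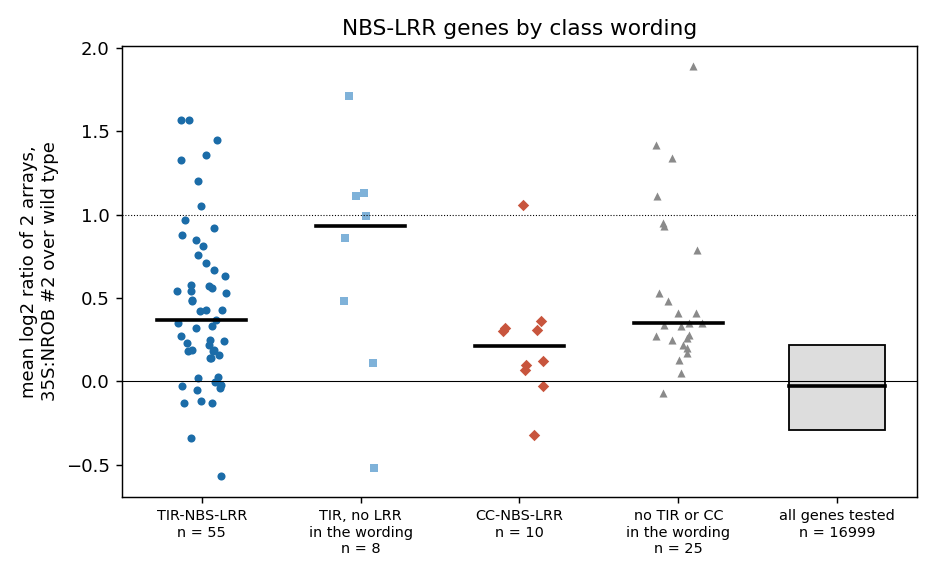
Mean log2 ratio of 35S:NROB #2 over wild type (y axis) by class wording, with 1 point per gene and a bar at the class median; the grey box spans the quartiles of all 16999 genes tested and its bar is their median. The class medians lie between 0.21 and 0.93, against -0.028 for all genes tested, and the dotted line marks 2-fold.

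The 8 genes lower on both arrays differed by less than 2-fold. AT1G63860, a TIR-NBS-LRR gene, read 77.8 and 97.0 in 35S:NROB #2, against 108 and 154 in wild type, a mean log2 ratio of -0.57 ± 0.14 (limma adjusted p 0.0841). Another probe of the same locus, without the wording, went the other way, at 0.40 and 0.60 on the arrays. AT4G23440, a TIR gene without mention of LRR, read 659 and 551 in 35S:NROB #2, against 816 and 912 in wild type, a mean log2 ratio of -0.52 ± 0.30 with no overlap. AT4G19530 stood at -0.34 ± 0.45 and the CC-NBS-LRR gene AT5G43740 at -0.32 ± 0.068. AT5G41540 at -0.13, RPS6 at -0.12, AT1G61310 at -0.071 and AT5G46510 (VICTL) at -0.04 were close to 0. After loess AT1G61310 and VICTL were at 0.017 and 0.059, above 0, and the 3 probes of RPS6 ran between -0.23 and 0.18.

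Of the 98 genes, 34 lie on chromosome 1, 36 on chromosome 5, 15 on chromosome 4, 10 on chromosome 3 and 3 on chromosome 2. Receptor genes often sit side by side in the genome, and genes of 1 neighbourhood did not all share a direction. With neighbours taken as genes of the set at most 10 genes apart in the reference order, 105 of the 150 loci fell into 37 groups and 45 stood alone, and 11 of the 15 genes past the threshold belonged to a group. AT5G41740 and AT5G41750 were both past it, and so were AT1G17600 and AT1G17610. The annotated models of AT1G17600 and AT1G17610 overlap, as do those of 4 pairs of loci in the set in all, and whether their probes share transcript was not tested. RFL1 at 1.34 and AT1G12290 at 1.06 lie on either side of SUMM2 at -0.18. In the group from AT5G46450 to AT5G46520, AT5G46490 stood at 0.88 and VICTR at 0.81, while VICTL, next to VICTR, stood at -0.04 and RPS6 at -0.12. Between RPP4 at 0.54 and RPP5 at 0.56 lies AT4G16900 at -0.0023. Close paralogues may bind each other's probes, which was not tested.

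**Figure D4:**
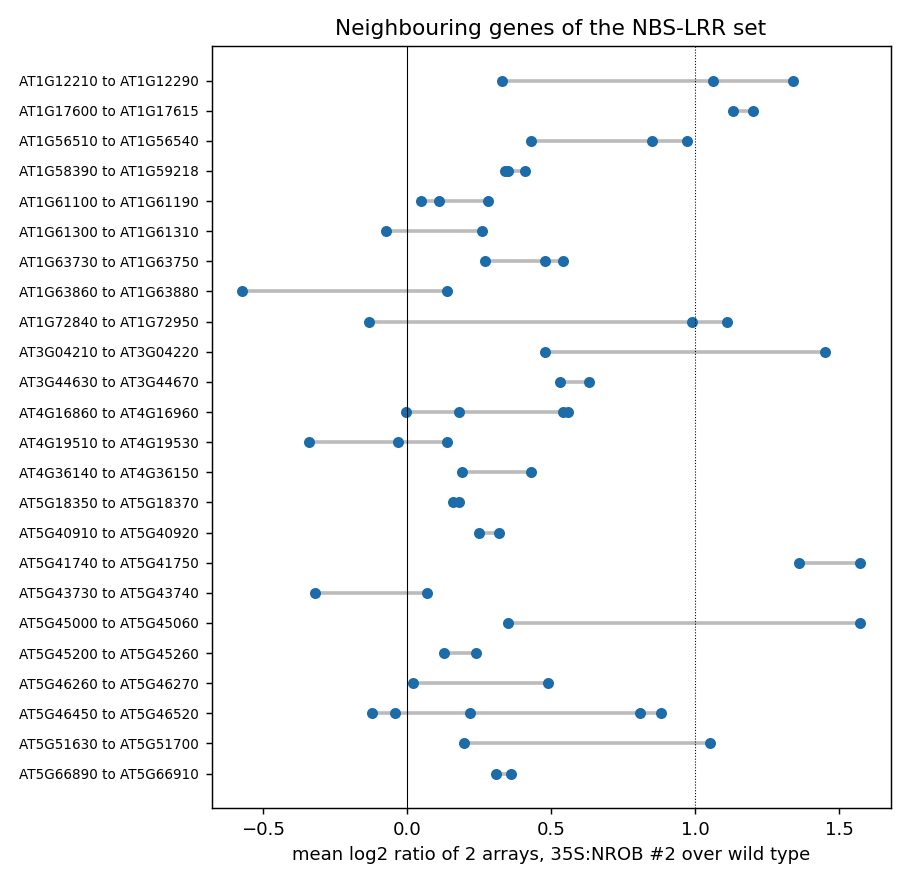
Mean log2 ratio of 35S:NROB #2 over wild type (x axis) for the neighbouring genes of the set, with 1 row per group that has at least 2 ratios, 1 point per gene and a grey line across the group's range; the dotted line marks 2-fold. The group from AT5G46450 to AT5G46520 runs between -0.12 and 0.88, while AT5G41740 and AT5G41750 lie together at 1.36 and 1.57.

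Several probes flagged present on both arrays were available for 38 genes of the set. Their mean log2 ratios spread by a median of 0.22 within a gene, and for 10 genes the probes had opposite signs. The widest spreads were 0.69 for AT4G16960, 0.68 for AT1G58602 and 0.61 for AT4G19520, and the 4 probes of RPP5 ran between 0.043 and 0.56. AT5G41750, past the threshold by its brightest probe, stood at 1.17 by its other probe.

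Of the 52 loci without a ratio, 39 had all 4 intensities at or under the dimmest present spot of the same channel and array, which was 35.1 and 51.0 in 35S:NROB #2 and 28 and 25.4 in wild type. For a few others the wild-type signal was too dim while the 35S:NROB #2 signal was not. On both arrays this held for 3 loci, and the reverse for 2. The share of such loci over the whole array is not given here. A fold was then given only as a bound, taken against the dimmest present spot or the wild-type signal where that was higher. Each bound is a mean over the 2 arrays on the log2 scale, so the bound of a single array can be smaller. That level is not a firm detection limit. Among spots flagged absent, the dimmer channel reached 50.1 on array 1 and 66.0 on array 2. Each bound below holds only for the level used, and would be smaller against a higher one. AT1G17615, a TIR gene beside AT1G17610 and AT1G17600, read 283 and 385 in 35S:NROB #2, against 6.26 and 5.74 in wild type, at least 12.4-fold higher. Every 35S:NROB #2 value lay far above every wild-type value, although both spots were flagged absent.

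AT4G11170 (RMG1), a receptor gene known for a DNA-methylated promoter, read 81.3 and 213 in 35S:NROB #2, against 6.48 and 9.68 in wild type, at least 4.92-fold higher. AT5G66890, next to AT5G66900, read 98.3 and 143 in 35S:NROB #2, against 9.29 and 14.4 in wild type, at least 4.43-fold higher. Neither gene had a wild-type signal above the dimmest present spot on either array. AT3G14460, the neighbour of AT3G14470, read 111 and 155 in 35S:NROB #2, against 12 and 26.8 in wild type, at least 4.78-fold higher, with a present flag on array 2 alone. AT4G14370 read 109 and 165 in 35S:NROB #2, against 38.3 and 21.9 in wild type, at least 4.28-fold higher, with a present flag on array 1 alone. On array 1 its log2 ratio was 1.5, a smaller change than this mean bound. In the other direction, AT5G17680 and AT5G05400, named after their values were seen, were dim in 35S:NROB #2 and above the dimmest present spot in wild type. Their mean bounds were at least 1.23-fold and 1.13-fold lower. For AT5G05400 the wild-type intensity of 49.2 on array 2 lay under the 35S:NROB #2 level of 51.0.

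Genes of proteins that receptors act with were also mostly higher in 35S:NROB #2. Of 26 listed partner genes 24 were measured, with a median log2 ratio of 0.35. On both arrays 16 were higher (66.7%, beside 37.8% of all genes) and 4 were lower (16.7%, beside 43.2%), and 4 were over 2-fold higher (16.7%, beside 4.85%). PAD4, the partner of EDS1 in TIR signalling, read 8342 and 11735 in 35S:NROB #2, against 2836 and 2646 in wild type, a mean log2 ratio of 1.85 ± 0.42. EDS1 itself read 2708 and 3455 in 35S:NROB #2, against 1232 and 1309 in wild type, a mean log2 ratio of 1.27 ± 0.19. The limma adjusted p was 0.0524 for either gene, and the genotypes did not overlap. SAG101, the other partner of EDS1, stood at 0.92, and NDR1, on which many CC receptors depend, at 0.50. The NDR1 spots were dim, at 71.8 and 71.6 in 35S:NROB #2, against 47.4 and 54.4 in wild type.

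HR4, a homologue of the powdery mildew resistance protein RPW8, had the highest ratio of the list, from 58435 and 83894 in 35S:NROB #2, against 17552 and 14901 in wild type. Its mean log2 ratio was 2.11 ± 0.54, and its relative HR3 stood at 0.92. The chaperones that fold and stabilise receptors varied: HSP90.1, the heat-inducible HSP90, stood at 1.18 ± 0.44, HSP90.2 at 0.53, the cochaperones SGT1A and SGT1B at 0.75 and 0.60, and RAR1 at 0.20. The guarded proteins RIN4 and PBS1 differed little, at 0.065 and 0.11. Among negative regulators, BON1 stood at 0.74, SRFR1 at 0.26 and the F-box protein CPR1, which limits SNC1 and RPS2 levels, at -0.20. Lower on both arrays, beside 16 partners higher on both, were CPR1, CRT1 at -0.16, MOS6 at -0.11 and MOS4 at -0.057. RIN4, TPR1, MOS2 and AT1G14200 had opposite signs on the arrays. The log2 ratio of AT1G14200 was -0.73 on array 1 and 1.0 on array 2. RAR1 also belongs to the set by wording.

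**Figure D5:**
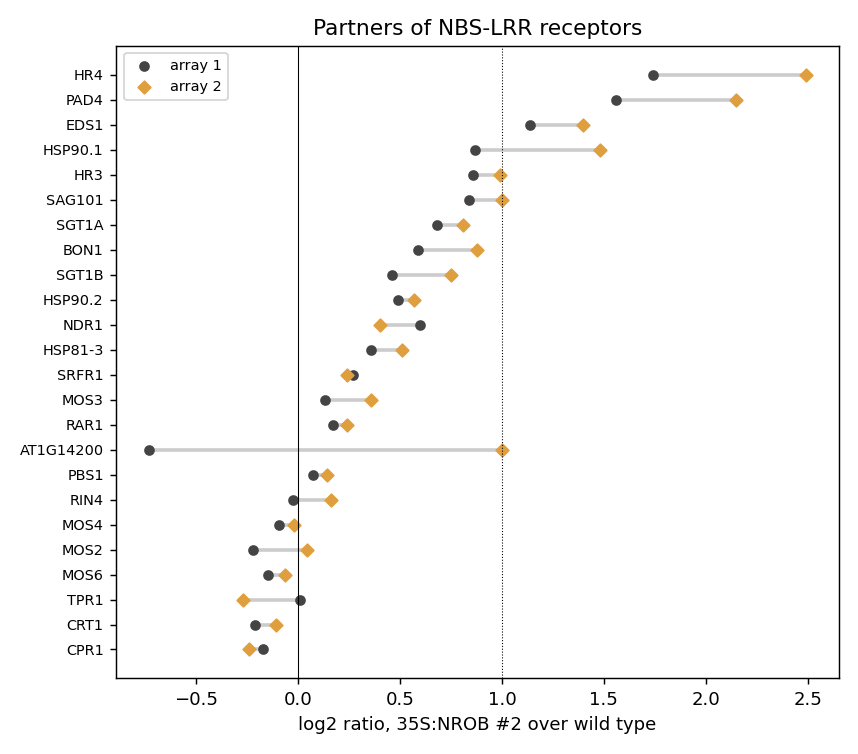
Log2 ratio of 35S:NROB #2 over wild type (x axis) on array 1 (circles) and array 2 (diamonds) for the 24 measured partner genes, sorted by their mean; the dotted line marks 2-fold. HR4, PAD4, EDS1 and HSP90.1 have means over 1, and RIN4 and PBS1 lie near 0.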

How the data were processed

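The authors deposited, per the file headers, a normalized intensity for each channel, a log2 ratio and a present, marginal or absent flag for each of 43663 probes on 2 two-colour Agilent arrays. The submitters' processing notes name Agilent Feature Extraction 8.5.1.1, while the method of normalization was not given in any source used here. The deposited log2 ratio equalled that of the channels within 9.62e-07, and the deposited series values are its negative, so the ratio used here is 35S:NROB #2 over wild type. Channel medians lay between 1086 and 1245. After 60 control probes were left out, probes were tied to loci through a reference table (TAIR10.1, names and gene order only), and the brightest probe flagged present on both arrays stood for a gene. limma 3.58.1 (R 4.3.3) fitted the mean of the 2 ratios of 16999 genes with eBayes and Benjamini-Hochberg adjustment, and was tested on simulated data. Each ratio holds both genotypes of an array, so the array is the replicate block by the labels. The members, lists and tests were chosen with earlier results of these data known. Named are the most changed members, the genes next to the 2-fold threshold, listed receptors and partners, and the brightest members without a ratio; 1 listed receptor is not reported here. Other normalizations, filters, probe rules and single arrays were tried as alternatives. Python 3.11.15, pandas 2.3.3 and matplotlib 3.10.9 were used.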

Additional observations from a re-analysis of the deposited data

Results flagged for a closer look

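Signal also appeared in a few probes of the set that the ratios leave out. The loci named were picked for a bright channel. Whether such signal is particular to the set was not tested, as no share over the whole array is given. The bounds given here are means over the 2 arrays and rest on the dimmest present spot, which is not a firm detection limit. Loci without a present flag on both arrays stood above the wild-type level at AT1G17615 (at least 12.4-fold higher in 35S:NROB #2), AT4G11170 (at least 4.92-fold), AT3G14460 (at least 4.78-fold), AT5G66890 (at least 4.43-fold) and AT4G14370 (at least 4.28-fold). Probe A_84_P20593, described as a disease resistance protein but tied to no locus, read 149 and 281 in 35S:NROB #2, against 5.74 and 13.3 in wild type, at least 7.66-fold higher and flagged absent on both arrays. Probe A_84_P842437, also without a locus and present on both arrays, read 2277 and 2817 in 35S:NROB #2, against 1746 and 2009 in wild type, a mean log2 ratio of 0.44.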

How the results depend on the processing

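The median of the set lay between 0.31 and 0.41 under every alternative, with 0.41 after loess, and between 0.32 and 0.39 on single arrays. Genes over 2-fold higher numbered 15 and between 9 and 28 under the alternatives (9 without the lower quartile of intensity, 28 with all gene probes), and between 10 and 22 on single arrays. Genes over 2-fold lower numbered 0 in the main analysis and on either array alone (0 and 0), and 1 with all gene probes. That gene, AT5G05400, named after its value was seen, was not above the dimmest present spot in 35S:NROB #2. Its bound, a mean over the 2 arrays, is at least 1.13-fold lower. The difference between TIR-NBS-LRR and CC-NBS-LRR lay between 0.14 and 0.18 on single arrays and was 0.055 with all gene probes. The readings with all gene probes rest in part on spots not above that level: 7 of the 13 genes they add to those over 2-fold higher had all 4 intensities at or under the dimmest present spot, as did 27 of 31 TIR-NBS-LRR and 4 of 4 CC-NBS-LRR loci without a ratio. Because of such spots, the readings with all gene probes cannot show whether the shift of the set or the class difference holds among the added loci. Of 905 values of 77 named genes under alternatives, 18 turned sign, none in a gene over 1 on the log2 scale, the largest main value being 0.13 in size.

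The number of genes that limma called over the whole array was the least stable result. It was 42 (95.2% higher), against 615 after centring on the median (75.4% higher), 926 after loess (71.3%), 997 after quantile normalization (65.5%), 190 without the lower quartile of intensity (83.7%), 23 with a present flag on 1 array (95.7%), 1439 with all gene probes (72.3%), 599 with probes averaged (75.6%) and 710 with an offset of 50 (71.8%). Without the replicate block, with the channels as 4 separate samples, it was 2945 (50.2% higher). Under that setting 28 genes of the set were called, all higher (28.6%, beside 17.3% of all genes). Genes of the set called otherwise numbered 0 with a present flag on 1 array, with the deposited series values or without members of other kinds. All genes called there were 0.13% to 0.247%. Elsewhere between 4 and 17 genes of the set were called, and the size of the set differed between settings. These were 6.12% to 12.2% of the set, beside 1.49% to 5.87% of all genes. The causes were not tested. On single arrays there was no test.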
